A study of Sus scrofa with 13 samples.

Results

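Mitochondrial ribosomal proteins build the ribosome that works inside mitochondria. They were taken here as every gene whose symbol in the array's platform annotation begins with MRPL, for the large subunit, or MRPS, for the small subunit. This gave 58 genes with 77 probe sets, of 6765 genes with a single symbol and 23999 probe sets in all. The large subunit had 36 of the genes and the small subunit 22. Each gene is described by its probe set with the highest mean over the 13 arrays, and all 58 of these lay above the filter on dim probe sets. A further 6 probe sets carried several symbols, 1 of them for MRPL22 and 5 for MRPL55, and were not used.

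The samples were drill biopsies of heart muscle from 13 miniature pigs, female Sinclair miniswine aged 3 months, whose left anterior descending coronary artery had its diagonal branches permanently tied off. After the infarction 7 animals received stem cells (50000000 cells, called MPCs in the protocols without the name being spelled out) in 2 ml saline over 5 sites of the border zone, and 6 animals received 2 ml saline alone in the same number of injections. Biopsies were taken 4 months after the procedure, each on 1 porcine Affymetrix array. No animal without an infarct was analysed here, the place of each biopsy relative to the scar is not stated, and no batch or date is given. Cardiomyocyte markers were present in every biopsy: 10 of 12 listed genes had a probe set, all 10 were above the filter, and their mean log2 intensity was 13.96 ± 0.11 in the 7 stem cell hearts and 13.87 ± 0.093 in the 6 saline hearts (SD).

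The mitochondrial ribosome translates the few messenger RNAs that mitochondrial DNA encodes, which are all for subunits of the respiratory chain and ATP synthase. Its proteins are all made from nuclear genes, translated in the cytosol and imported. The small subunit binds the messenger and reads its codons, and the large subunit joins the amino acids and releases the finished chain at the inner membrane. Heart muscle is rich in mitochondria and depends on them for most of its ATP.

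As a group these genes had lower values in hearts given stem cells. Of the 58 genes, 53 had a negative log2 difference, stem cells minus saline, and 5 a positive one, against 59.4% negative among the 5196 genes tested. The median log2 difference was -0.35 over the members, -0.054 over all genes tested and 0.017 over all 14399 probe sets tested. At an unadjusted p under 0.05 in limma, 21 members were lower and 0 were higher after stem cells. Among the 5196 genes tested 465 (8.95%) were lower at that level and 151 were higher. Among all probe sets 5.15% were lower and 5.4% higher. After Benjamini-Hochberg adjustment over all probe sets, 0 members passed in limma, as did 0% of the probe sets tested, and the smallest adjusted p of a member was 0.393. The count of 21 rested partly on single animals: leaving out saline replicate 3 gave 11, saline replicate 6 gave 12, and stem cells replicate 3 or replicate 4 gave 13. In the same fits 4%, 4.1%, 4.15% and 5.01% of all probe sets were lower at that level. The share among genes, the closer match to the members, was not taken in these fits. In bulk tissue, fewer cells of a type and less RNA per cell cannot be told apart.

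**Figure D1:**
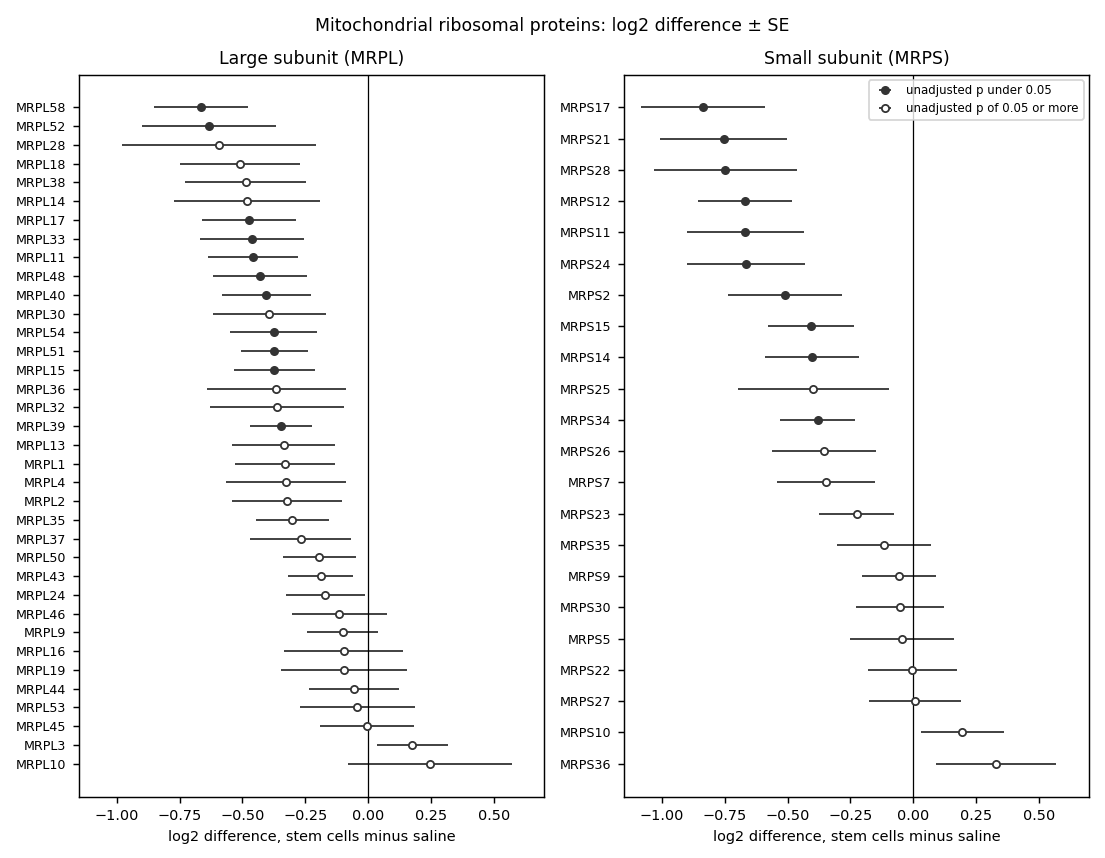
Log2 difference in intensity, stem cells minus saline, for the 58 members, with bars of 1 SE from limma. The left panel holds the 36 large subunit genes and the right panel the 22 small subunit genes, and filled points mark the 21 members with an unadjusted p under 0.05, all of which lie left of 0.

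Large and small subunit genes shifted by similar amounts. The median log2 difference was -0.34 for the large subunit, with 34 of 36 genes negative and 11 at an unadjusted p under 0.05, and -0.37 for the small subunit, with 19 of 22 negative and 10 at that level. By place in the assembled ribosome, MRPS30 and MRPS18A belong to the large subunit despite their symbols; of these only MRPS30 was among the members. Counting it there gave medians of -0.34 for the large and -0.38 for the small subunit. Some members descend from proteins of the bacterial ribosome and others do not. The 34 with a relative in the bacterial ribosome had a median of -0.37 and the 24 without had one of -0.25. In these sets 13 and 8 genes were lower at an unadjusted p under 0.05. The 24 include MRPL58, a release-factor relative, and MRPS36, which is described below as no part of the ribosome. These medians carry no test.

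The spread between animals was about as large as the difference between the groups. The mean log2 intensity over the 58 members was 8.31 ± 0.26 in the 7 stem cell hearts and 8.61 ± 0.24 in the 6 saline hearts (SD), a difference of -0.31. Single animals lay between 7.86 and 8.65 after stem cells, with a median of 8.30, and between 8.30 and 8.97 after saline, with a median of 8.62. The groups overlapped: 2 stem cell animals lay below every saline animal, and 3 saline animals above every stem cell animal. At the low end stood stem cells replicate 4, whose mean was 7.86 and which had the lowest value of all 13 animals for 25 of the 58 genes. At the high end stood saline replicate 3, with a mean of 8.97 and the highest value for 29 genes. Such counts of lowest and highest values were not taken over all genes. Stem cells replicate 7, at 8.65, lay above the saline mean, and saline replicate 5, at 8.30, lay below the stem cell mean.

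The difference between the subunits within an animal varied little. The large subunit mean minus the small subunit mean was 0.92 ± 0.055 in the 7 stem cell hearts and 0.89 ± 0.099 in the 6 saline hearts (SD). The stem cell animals ran from 0.83 to 0.978 and the saline animals from 0.764 to 1.03, so that the first range lay inside the second. The shift in this quantity, 0.025, was smaller than either SD, and it was -0.00089 without saline replicate 5. Because probe sets differ in how strongly they bind, only its change between animals can be read, not its size.

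**Figure D2:**
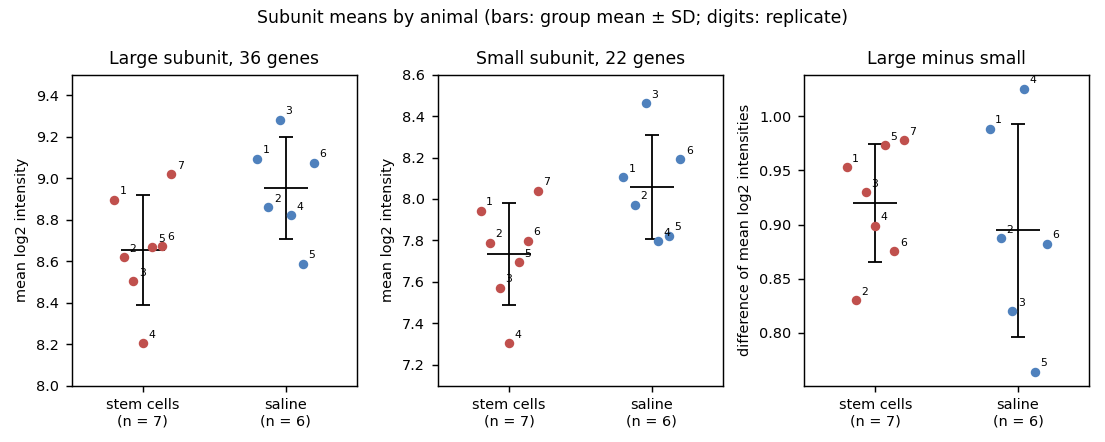
Mean log2 intensity per animal over the 36 large subunit genes, left, and the 22 small subunit genes, middle, and the difference between these means, right; each point is an animal numbered by replicate, and bars give the group mean ± SD. Stem cells replicate 4 is lowest and saline replicate 3 highest in both subunits, while the right panel spans 0.764 to 1.03 on the log2 scale.

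Members also varied together among animals of the same group. Over all pairs of the 58 genes the median Pearson correlation across the 13 arrays was 0.52, and it was 0.462 after each group's mean had been taken away, against 0.0324 and 0.0289 over all pairs of the 5196 genes tested. Within the large subunit the median after removing group means was 0.469, within the small subunit 0.423, and between the subunits 0.463. All these genes share the same 13 arrays and their normalization, so the correlations are a description. Set against the mean of the other 57 members, with group means removed, 47 of 58 genes had a correlation above 0.5 and 0 had one below 0. The closest to the rest were MRPS7 at 0.878, MRPL35 at 0.862 and MRPL18 at 0.858. A second, dimmer probe set of MRPL35 correlated with its lead at -0.019 over the 13 arrays. The most loosely tied were MRPS30 at 0.146, MRPS34 at 0.275 and MRPS10 at 0.326.

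**Figure D3:**
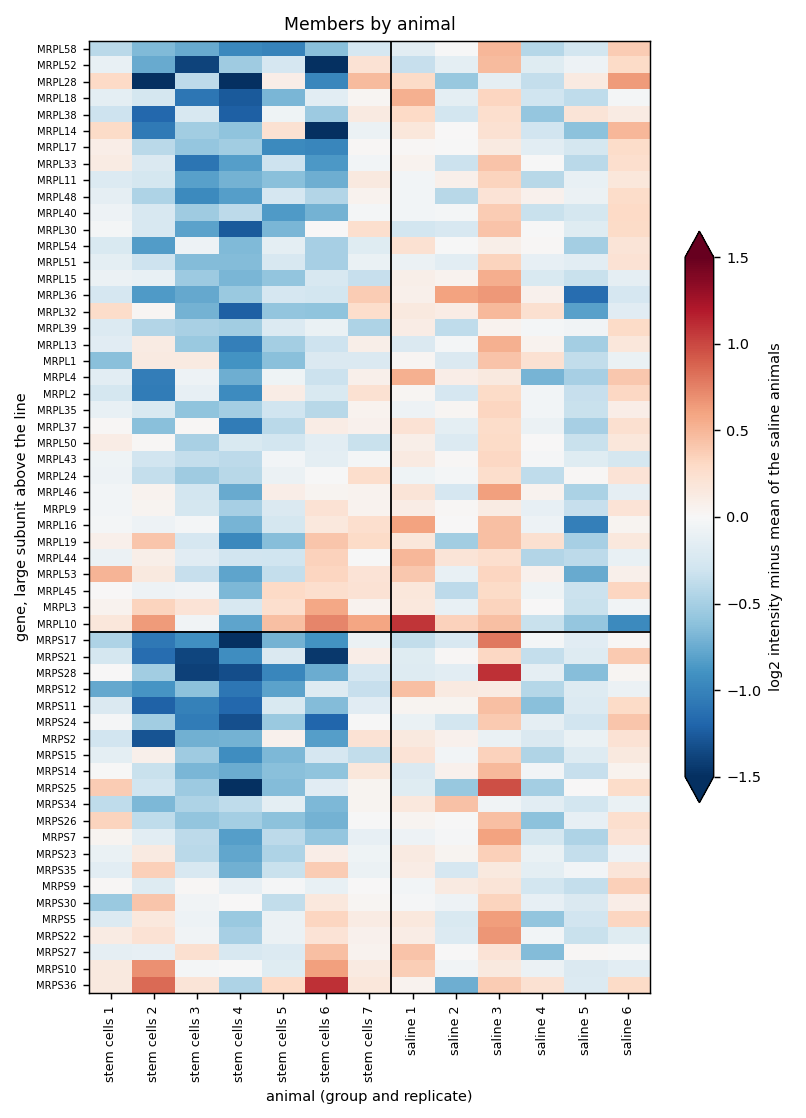
Log2 intensity of each member in each animal minus the mean of the saline animals for that gene. Rows are genes, ordered within each subunit by the difference between groups, and columns are animals, stem cells left of the line; 6 of the 754 values lie beyond the colour range of 1.5. Red is higher and blue lower: stem cells replicate 4 is blue and saline replicate 3 red in most rows, while MRPL10, MRPS10 and MRPS36 are red in stem cells replicates 2 and 6.

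In the small subunit, the decoding site is the place where codon and anticodon are matched, and MRPS12, the relative of bacterial S12, lines it. MRPS12 had the smallest p of all members. Its log2 intensity ran from 5.05 to 5.94 after stem cells, with a median of 5.37, and from 5.70 to 6.59 after saline, with a median of 6.15. The 7 stem cell hearts were all under the saline mean, and 5 were under every saline heart. The log2 difference was -0.67 ± 0.19 (SE), a ratio of 0.629, with an adjusted p of 0.393 in limma. The other 2 probe sets of MRPS12 that passed the filter were also negative, both at -0.31.

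On the platform and body of the small subunit, 6 of the 6 members placed there were negative, with a median of -0.59. Of them 5 were at an unadjusted p under 0.05. In the whole small subunit 19 of 22 were negative and 10 were at that level. Among all genes tested 59.4% were negative and 8.95% were lower at that level. Places in the ribosome were assigned with the values known, and differences between places were not tested. The counts depend on which members were placed here: MRPS22 and MRPS27, at -0.0035 and 0.0082, were left outside. MRPS17, which binds the body of the small subunit's RNA, had the largest log2 difference of any member, -0.84 ± 0.25 (SE, limma adjusted p of 0.393). Its values were 6.62 to 8.23 after stem cells, with a median of 7.43, and 7.95 to 9.11 after saline, with a median of 8.22. Stem cells replicate 7 alone reached into the saline range, and saline replicate 3 stood well above the other saline animals.

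MRPS21, the relative of bacterial S21, ran from 9.88 to 11.43 after stem cells, with a median of 10.39, and from 10.97 to 11.72 after saline, with a median of 11.24. The stem cell animals fell into a lower set of 4, between 9.88 and 10.39, and 3 animals, replicates 1, 5 and 7, at 11.06 or above within the saline range. The difference was -0.75 ± 0.25 (SE, limma adjusted p of 0.414). MRPS11, which sits beside the messenger's exit, ranged from 6.98 to 8.02 with a median of 7.54 after stem cells, and from 7.57 to 8.64 with a median of 8.24 after saline, a difference of -0.67 ± 0.23 (SE, adjusted p of 0.42 in limma). Its 7 stem cell values were all under the saline mean. MRPS15 and MRPS2 had differences of -0.41 ± 0.17 and -0.51 ± 0.23 (SE), and MRPS5, near the entry of the messenger channel, one of -0.044 ± 0.21.

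**Figure D4:**
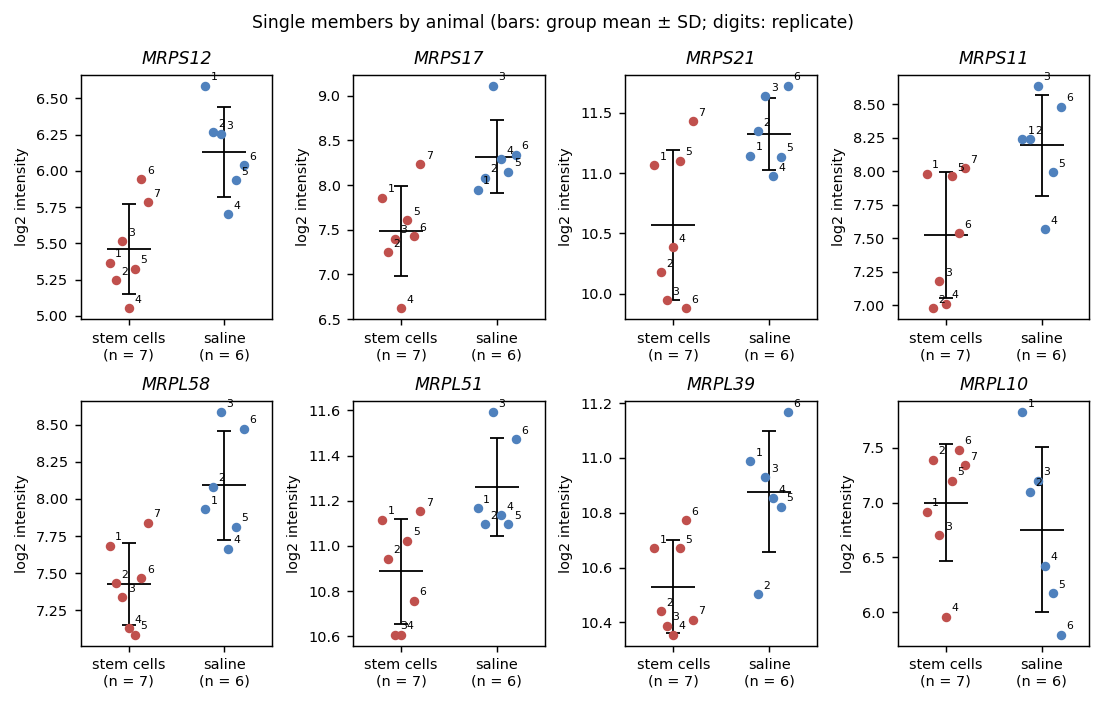
Log2 intensity of 8 members in each animal, stem cells (red, n = 7) left of saline (blue, n = 6), with replicate numbers and bars for the group mean ± SD. In MRPS12, MRPS17, MRPS11, MRPL58, MRPL51 and MRPL39 the 7 stem cell animals all lie under the saline mean, in MRPS21 6 of 7 do, and in MRPL10 2 of 7 do.

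The head of the small subunit, which swivels as the messenger moves, had 4 of 5 members negative, against 19 of 22 small subunit genes. MRPS24, the relative of bacterial S3, ran from 8.55 to 9.86 after stem cells, with a median of 9.32, and from 9.59 to 10.29 after saline, with a median of 9.75. The stem cell hearts were all under the saline mean, and the difference was -0.66 ± 0.23 (SE, limma adjusted p of 0.42). MRPS14 and MRPS7 stood at -0.40 ± 0.19 and -0.35 ± 0.19. MRPS9 was close to 0, at -0.057 ± 0.15, and its second probe set had the other sign, at 0.18. MRPS10 was positive at 0.19 ± 0.17, with 9.30 to 10.17 after stem cells and 9.26 to 9.85 after saline. Leaving out stem cells replicate 2 gave 0.112 and replicate 6 gave 0.124; these animals had its highest values.

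Of the small subunit proteins outside these places, MRPS28, which has an S1-like domain, and MRPS34, which mitochondria added, were lower at an unadjusted p under 0.05. MRPS28 ran from 5.94 to 7.34 after stem cells, with a median of 6.59, and from 6.70 to 8.43 after saline, with a median of 7.19, and 6 of 7 stem cell hearts were under the saline mean. Its difference was -0.75 ± 0.29 (SE), and that of MRPS34 -0.38 ± 0.15, both with an adjusted p of 0.423 in limma. MRPS25, MRPS26, MRPS23 and MRPS35 ranged from -0.40 to -0.12. The probe set of MRPS23 had a mean of 3.44, close to the filter level of 3.36. MRPS22 and MRPS27 were near 0, at -0.0035 ± 0.18 and 0.0082 ± 0.18, as was MRPS30, at -0.053 ± 0.18. With each animal left out in turn, MRPS27 ran from -0.122 to 0.0939 and MRPS30 from -0.132 to 0.031.

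MRPS36 had the highest positive difference of all members, 0.33 ± 0.24 (SE, limma adjusted p of 0.621). Despite its symbol, this small protein is now known in human cells as KGD4, a subunit of the 2-oxoglutarate dehydrogenase complex of the citric acid cycle, and not as part of the ribosome. It ran from 10.10 to 11.66 after stem cells, with a median of 10.76, and from 9.83 to 10.94 after saline, with a median of 10.70. Leaving out saline replicate 2, the lowest animal, gave 0.182, and leaving out stem cells replicate 6, the highest, gave 0.202. Without MRPS36 the small subunit had 19 of 21 genes negative and a median of -0.38.

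In the large subunit, the central protuberance touches the transfer RNAs and bridges to the small subunit's head. Here 7 of 7 members were negative, against 34 of all 36 large subunit genes and 59.4% of all genes tested. At an unadjusted p under 0.05 were 4 of them, against 11 of the 36 and 8.95% of all genes tested. MRPL58, formerly ICT1, is a release-factor relative that can free a chain from a stalled ribosome and is built into this region. It ran from 7.09 to 7.84 after stem cells, with a median of 7.43, and from 7.67 to 8.58 after saline, with a median of 8.01. The 7 stem cell hearts were all under the saline mean, and 5 were under every saline heart. The log2 difference was -0.67 ± 0.19 (SE), a ratio of 0.631, with an adjusted p of 0.393 in limma.

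MRPL52 ran from 9.19 to 10.99 after stem cells, with a median of 10.24, and from 10.43 to 11.25 after saline, with a median of 10.66, a difference of -0.63 ± 0.27 (SE, limma adjusted p of 0.438). Its stem cell values spread more widely, with an SD of 0.662 against 0.312 after saline. Its second probe set stood at -0.093. MRPL48 and MRPL40 had differences of -0.43 ± 0.19 and -0.40 ± 0.18, MRPL18 and MRPL38 of -0.51 ± 0.24 and -0.49 ± 0.24, and MRPL46 of -0.11 ± 0.19.

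Around the stalk that receives the translation factors, the members split. MRPL11 at the stalk's base ran from 8.73 to 9.68 after stem cells, with a median of 8.91, and from 9.12 to 9.87 after saline, with a median of 9.56, a difference of -0.46 ± 0.18 (SE, limma adjusted p of 0.423). MRPL10, which carries the stalk's tip, was positive at 0.25 ± 0.33 (SE, adjusted p of 0.805 in limma), with 5.96 to 7.48 after stem cells and 5.80 to 7.83 after saline. Its values were the most scattered among those of the positive members, and the difference was 0.0549 without saline replicate 6, 0.13 without saline replicate 5, 0.419 without stem cells replicate 4 and 0.461 without saline replicate 1. MRPL1, on the opposite stalk, stood at -0.33 ± 0.20.

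Next to the peptidyl transferase centre, where amino acids are joined, MRPL3 had a positive difference of 0.18 ± 0.14, with 10.99 to 11.81 after stem cells and 10.89 to 11.56 after saline. Its second probe set was also positive, at 0.091, and its dimmest was at -0.039. Leaving out saline replicate 5 gave 0.109, and leaving out stem cells replicate 6 gave 0.108. MRPL2 and MRPL16 stood at -0.32 ± 0.22 and -0.098 ± 0.24. Along the tunnel of the growing chain and at its exit, MRPL17 was at -0.47 ± 0.19 (SE, limma adjusted p of 0.423), with 9.07 to 10.15 after stem cells and 9.79 to 10.33 after saline and 5 of 7 stem cell animals below every saline animal. MRPL4 and MRPL24 followed at -0.33 ± 0.24 and -0.17 ± 0.16. MRPL45, which anchors the ribosome to the inner membrane, was near 0 at -0.0042 ± 0.19, and at 0.108 without stem cells replicate 4.

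Among the other large subunit proteins the smallest p belonged to MRPL51 and MRPL39, which bacteria lack. MRPL51 ran from 10.61 to 11.15 after stem cells, with a median of 10.94, and from 11.10 to 11.59 after saline, with a median of 11.15, and 5 of 7 stem cell hearts were under every saline heart. Its difference was -0.37 ± 0.13 (SE). MRPL39 ran from 10.36 to 10.77 after stem cells, with a median of 10.44, and from 10.50 to 11.17 after saline, with a median of 10.89; 5 of 6 saline animals lay above every stem cell animal, the exception being saline replicate 2. Its difference was -0.35 ± 0.12 (SE), and the adjusted p was 0.42 for both in limma. MRPL15, MRPL54 and MRPL33 were lower at an unadjusted p under 0.05 too, at -0.37 ± 0.16, -0.38 ± 0.17 and -0.46 ± 0.21, but a second probe set of MRPL33 was at 0.13.

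The other large subunit members, 14 genes, had differences from -0.59 to -0.044, none at an unadjusted p under 0.05. MRPL28 had the highest SD of any member after stem cells, 0.979, against 0.442 after saline. It ran from 6.26 to 8.74 after stem cells, with a median of 7.88, and from 7.70 to 8.90 after saline, with a median of 8.27. Its difference was -0.59 ± 0.39 (SE). The stem cell values of 6.26 in replicate 2, 6.61 in replicate 4 and 7.29 in replicate 6, lay below every saline animal. MRPL14 at the interface of the subunits had its lowest values, 7.34 and 7.87, in stem cells replicates 6 and 2, and a difference of -0.48 ± 0.29. In the same replicates 2 and 6, MRPS36 was highest, at 11.42 and 11.66, and MRPS10 was highest, at 10.17 and 10.09.

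No member separated the groups fully: in 0 of 58 genes did every stem cell animal lie below every saline animal, or above, against 0.16% of all probe sets tested for below and 0.118% for above. In 11 genes the 7 stem cell hearts were all under the saline mean, and in 28 genes at least 6 were. The share of all genes with such counts was not taken, so they only describe the members. The exact permutation test over all 1716 splits of the 13 animals, taken gene by gene and two-sided, gave an unadjusted p under 0.05 for 19 members, all lower. By the same test 8.53% of all genes and 5.1% of all probe sets tested were lower at that level, and 3.19% and 5.43% were higher. Its smallest values were 0.00408 for MRPL58, 0.00524 for MRPS12 and 0.00583 for MRPS17. Of 13 genes with 2 or more probe sets above the filter, 10 had the same sign in all and 3, MRPL3, MRPL33 and MRPS9, did not. Among the 10, the lead and second probe sets correlated over the 13 arrays at -0.22 for MRPL32 and -0.019 for MRPL35. For the rest of the 10 this ran from 0.33 for MRPL38 to 0.95 for MRPL2, so an equal sign is not always agreement. Of the 15 probe sets that did not lead their gene, 12 were negative, with a median of -0.16.

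Ribosomal proteins that carry other symbols were fewer. DAP3, CHCHD1 and PTCD3 belong to the small subunit and GADD45GIP1 to the large. CHCHD1 ran from 9.62 to 10.57 after stem cells and from 10.12 to 10.97 after saline, a difference of -0.39 ± 0.17 (SE, limma adjusted p of 0.449). GADD45GIP1 stood at -0.41 ± 0.20, DAP3 at -0.13 ± 0.20 and PTCD3 at 0.25 ± 0.20, so that 3 of 4 were negative and 1 was lower at an unadjusted p under 0.05.

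Genes that serve the mitochondrial ribosome without being part of it were closer to 0. Of 9 translation factors tested 8 were negative, with a median of -0.13. TUFM, the elongation factor that brings transfer RNAs to the ribosome, was the 1 factor lower at an unadjusted p under 0.05. It ran from 7.29 to 8.38 after stem cells and from 8.38 to 8.76 after saline, the groups meeting at one value, a difference of -0.53 ± 0.19 (SE, limma adjusted p of 0.423). The release factors MTRF1L and MTRF1 stood at 0.25 ± 0.15 and -0.20 ± 0.17, and TSFM, which recycles TUFM, at -0.13 ± 0.14. Of 8 genes that charge transfer RNAs in mitochondria 5 were negative, against 59.4% of all genes tested, and 0 passed that level. GATB at -0.27 ± 0.15 and QRSL1 at -0.41 ± 0.26 are both parts of the glutaminyl amidotransferase. FARS2 stood at -0.31 ± 0.30 and KARS at 0.12 ± 0.10.

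Assembly factors of the mitochondrial ribosome were negative in 10 of 17, against 59.4% of all genes tested, with a median of -0.037. At an unadjusted p under 0.05, 3 were lower, against 8.95% of all genes tested. These were DHX30, an RNA helicase, at -0.36 ± 0.13, MALSU1, which keeps the subunits from joining early, at -0.41 ± 0.18, and MPV17L2 at -0.28 ± 0.13; METTL17 stood at -0.30 ± 0.15. Genes of mitochondrial transcription and RNA processing were negative in 5 of 11, with a median of 0.014. SLIRP, at 0.014, was counted both here and among the assembly factors. In this list 2 genes were higher at an unadjusted p under 0.05. TFAM, which packs and transcribes mitochondrial DNA, ran from 9.82 to 10.69 after stem cells and from 9.57 to 10.12 after saline, a difference of 0.37 ± 0.15 (SE, limma adjusted p of 0.437). TRMT10C, part of the enzyme that cuts transfer RNAs from mitochondrial transcripts, was at 0.59 ± 0.22 (adjusted p of 0.423 in limma), with HSD17B10 of the same enzyme at -0.23 ± 0.12 and ELAC2 at -0.30 ± 0.21. Among 4 regulators of nuclear genes for mitochondria, PPRC1, YY1, MYC and PPARGC1A stood at 0.39 ± 0.26, 0.11 ± 0.14, 0.10 ± 0.40 and -0.037 ± 0.23. In these lists 0 genes passed after adjustment over all probe sets in limma.

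Set beside the groups most like them, the share of members lower at an unadjusted p under 0.05, 36.2%, lay between the others. Of 31 subunits of respiratory complex I, 30 were negative and 19 were lower at an unadjusted p under 0.05, with a median of -0.33. Of 58 cytosolic ribosomal proteins tested, 50 were negative and 6 were lower at that level, with a median of -0.14. The differences between these groups were not tested.

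Measures of RNA quality and tissue makeup were set beside these values. For the EF1A control, the log2 ratio between its 3' and its 5' probe set, which rises as RNA degrades, was 0.815 ± 0.11 in the 7 stem cell hearts and 0.947 ± 0.098 in the 6 saline hearts (SD), with an exact permutation p of 0.046, two-sided, and of 0.138 adjusted over the 3 ratios of this kind. With this ratio as a covariate, added after the data were seen, the median over the members was -0.23 and 8 were lower at an unadjusted p under 0.05, against 5.08% of all probe sets in the same fit. The ratio for actin was 2.89 after stem cells and 3.13 after saline, with an exact permutation p of 0.664, and that for GAPDH was 0.535 after stem cells and 0.522 after saline, with an exact permutation p of 0.959. With the mean of the cardiomyocyte markers as a covariate, also added later, the median was -0.27 and 7 members were lower at that level. Of all probe sets 2.74% were lower in that fit and 5.15% with no covariate. The share among genes, the closer match to the members, was 8.95% with no covariate. It was not taken with either covariate.

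Markers of other cells were taken as summed intensities of each list. Macrophage and monocyte markers, 6 of 8 with a probe set, summed to 589 to 1184 after stem cells and 650 to 2236 after saline, and 5 of 6 were negative, 2 at an unadjusted p under 0.05. Smooth muscle markers, 4 of 6, summed to 2944 to 10438 after stem cells and 4111 to 12346 after saline. Negative were 3 of 4, with a median of -0.61, and 2 were lower at that level, MYL9 (-0.88 ± 0.21, SE) and CNN1 (-1.54 ± 0.69). The unadjusted limma p of MYL9, 0.00089, was smaller than that of any member. Both medians lay further from 0 than the -0.35 of the members. Fibroblast and matrix markers, 8 of 10, summed to 18287 to 53040 after stem cells and 17185 to 56063 after saline. Of these 2 of 8 were negative, and COL3A1 was higher at an unadjusted p under 0.05 (0.35 ± 0.12, log2 difference and SE). The probe sets of COL3A1 and COL1A2 were dim, with means of 3.67 and 3.69, not far above the filter level. Their differences, both positive, are therefore weak measures of these genes. Endothelial markers, 8 of 8, summed to 3237 to 5378 after stem cells and 3650 to 5555 after saline. Of the 6 tested, 4 were negative, and at an unadjusted p under 0.05 ENG was lower (-0.65 ± 0.29) and TEK higher (0.38 ± 0.17). Fat cell markers, 4 of 5, summed to 9586 to 13895 after stem cells and 8454 to 13304 after saline, and of the 2 tested 1 was negative and 0 passed that level. Cardiomyocyte markers were negative in 2 of 10, and 0 passed that level. After adjustment over all probe sets in limma, 0 genes of these marker lists passed. KDR and TIE1 of the endothelial list and ADIPOQ and LEP of the fat cell list lay under the filter. ADIPOQ and LEP had means of 2.70 and 2.85, so the fat cell sum rests on FABP4 and LPL, with means of 11.60 and 13.06. The part of these cells in the result was not tested.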

How the data were processed

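RNA from 13 animals was measured on porcine arrays. The authors deposited linear intensities, 1 per probe set and array. GCRMA is named in the submitters' processing notes, with version and settings not given in the sources used here; it corrects background, normalizes between arrays and summarises probes, and so removes a shift that most genes have in common. Of 24123 probe sets, 124 controls were left out and log2 was taken of the rest. The 14399 with a mean above the 40th percentile (3.36) were tested; the highest mean of 17 tag controls, with no porcine target, was 2.58. Median intensities per array were 13.5 to 14 and pairwise correlations 0.936 to 0.986. The annotation gave 10069 probe sets 1 symbol, 198 several and 13732 none.

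The comparison used limma 3.58.1 under R 4.3.3 (lmFit, eBayes with trend) and Benjamini-Hochberg adjustment over all probe sets. In simulated data it called 21% of log2 changes of 0.5, 70.7% of changes of 1 and 95.7% of changes of 2. Probe sets were simulated as independent, unlike the members, and changes as small as the members' median were not simulated. That the animals are separate is taken from the labels, and the number of arrays limits precision. Members and lists were chosen with earlier results of these data known. Named were, for each subunit, the 8 members with the smallest p and the 3 with the highest difference, members with disagreeing probe sets or set roles, and up to 4 genes of each list; other members are named by place. Alternatives were the filter, normalization, each animal left out, a replicate block, the variance model, array weights, the probe set of a gene and an exact permutation test. Covariates for RNA quality and cardiomyocyte markers were added after seeing the data. Scanner values and slides were not analysed here.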

Additional observations from a re-analysis of the deposited data

Results flagged for a closer look

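In the 25 members with a rule behind their naming and the 4 means by animal, 58 groups of values were screened for an animal far from its group, and 2 were found; chance gives about 1 in 20. MRPS17 stood at 9.11 in saline replicate 3, with a gap to the next saline animal of 0.664 of the group's range. MRPL45 stood at 7.61 in stem cells replicate 4, with a gap of 0.618 of the range. These are the animals with the highest and the lowest mean over all members. Without saline replicate 3 the difference of MRPS17 was -0.677.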

How the results depend on the processing

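In 24 alternatives the median over the members stayed negative and 47 to 54 members had a negative difference, 0 were higher at an unadjusted p under 0.05, 0 passed after adjustment, and the smallest adjusted p was 0.228. The count lower at an unadjusted p under 0.05, 21, was 8 with the EF1A ratio and 7 with the cardiomyocyte markers as a covariate, and 11 to 25 with each animal left out. Of all probe sets, 5.15% were lower at that level in the fit as reported. The share was 5.08% with the EF1A ratio, 2.74% with the cardiomyocyte markers and 3.72% to 6.22% with an animal left out. Among genes it was 8.95% in the fit as reported and was not taken in these alternatives. Without an animal the median ran from -0.417 to -0.264, and the difference between large and small subunit from -0.00089 to 0.0514; it was -0.00979 with the EF1A ratio. The cause was not tested. The deviations of same-numbered animals from their group means had correlations of -0.266 to 0.237. Animals with different numbers were not compared, so this cannot settle whether the numbers pair them. With a replicate block, in which stem cells replicate 7 has no partner, 22 members were lower at an unadjusted p under 0.05 and the median was -0.408. Of 25 named members 18 kept their sign in every alternative. The other 7 were these. With the EF1A ratio MRPL10 was at -0.00061, MRPL45 at 0.0279, MRPS27 at -0.101 and MRPS30 at 0.0337. With the mean over probe sets MRPS9 was at 0.0603, and with the lowest probe set of a gene MRPS9 was at 0.178, MRPL3 at -0.0392 and MRPL33 at 0.131. With each animal left out, MRPL45 ran from -0.0819 to 0.108, MRPS27 from -0.122 to 0.0939, MRPS9 from -0.129 to 0.013 and MRPS30 from -0.132 to 0.031. MRPS27 was at -0.0295 with array weights, -0.0221 with centred arrays and -0.114 with the cardiomyocyte markers.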
